A study of Mus musculus with 12 samples.

Results

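The comparison described here is that of livers from STZ diabetic mice (streptozotocin, STZ, destroys the insulin-producing beta cells) against livers of untreated control mice. Its members were chosen by the sample labels and no measured value entered the choice: 4 of the 6 liver samples of the series, on 8 of its 12 arrays. Total RNA was hybridised to single-colour mouse oligonucleotide arrays, each sample on 2 arrays whose log2 values were averaged, so that n = 2 per group throughout. The control group received no treatment, and the STZ group had diabetes induced with STZ and no further treatment. A group of STZ mice that also received MENS, a device treatment not spelled out in the labels, made up the remaining 2 samples. Its sessions were daily and of 1 h (5 days a week, 6 weeks in all). In the fit this group served only to estimate the spread between samples. The choice of the brightest probe and the mean intensity of a gene also took in its arrays. Mice of all 3 groups are labelled as 8 weeks old, without a statement of whether this is the age at the start or at sampling. The sources used here do not give strain, sex or the dose of STZ. No label states that a sample is a separate animal, and p-values therefore reflect only how far these samples lie apart, which may be technical.

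The liver takes up glucose when insulin is high and releases it when insulin is low, and it answers to growth hormone, glucocorticoids, bile acids and iron or zinc status as well as to insulin. STZ is a glucose derivative that alkylates DNA and is carried into cells by the glucose transporter GLUT2, the product of Slc2a2, which beta cells and hepatocytes both express. Genes of cholesterol synthesis, fatty acid synthesis and fatty acid oxidation are left aside below as families. Acot3 and Cidec, which the fatty acid oxidation list also holds, appear only as members of other lists.

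Levels are log2(intensity + 50) of the brightest probe of each of 17742 genes, and differences are STZ minus control on that scale with the standard error of the limma model. Folds are taken from the same scale and understate the change of dim genes. The correlation across genes, which are not independent replicates, was 0.986 to 0.996 between the arrays of 1 sample, 0.983 to 0.988 between samples within the control or STZ group, and 0.973 to 0.980 between STZ and control arrays. In whole tissue, fewer cells of a type and less RNA per cell cannot be told apart.

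In the limma fit of all 3 groups, 1 gene passed an adjusted p of 0.05 (0.00564% of all genes), and that was Top2b, whose arrays disagree within each control sample: the difference was 6.47 on the first arrays alone and 0.01 on the others. The next lowest adjusted p was 0.0643. With the genes left out whose 2 arrays differed by more than 1 in any control or STZ sample, 26 of 16504 genes passed as higher (0.158%) and 28 as lower (0.17%). In a fit of the 4 STZ and control samples alone, 103 genes passed as higher (0.581%) and 82 as lower (0.462%). The MENS-treated samples widen the spread for the genes that differ: among genes past the screen defined next, the median SD between the 2 samples of a group was 0.192 for control, 0.260 for STZ and 0.418 for STZ+MENS, against 0.127, 0.122 and 0.152 over all genes. Families are therefore described with a screen, an unadjusted p under 0.05 in the fit of 3 groups together with a difference of at least 2-fold. It was cleared by 315 genes as higher in STZ (1.78%) and by 167 as lower (0.941%), and these shares are the background for every screen count below. At an unadjusted p under 0.05 alone, limma gave 1504 of the 17742 genes as higher and 1506 as lower. Counts of list members at that threshold are to be read against these numbers. Of the 482 genes past the screen, 43 were higher and 24 lower by 4-fold or more. A family list used below held 86 of them and no list held 375, while 64 had arrays over 1 apart in some sample, 57 of them higher genes. The median difference over all genes was -0.02. A gene named below as higher or lower did not pass the adjusted threshold in the fit of 3 groups unless this is stated.

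**Figure D1:**
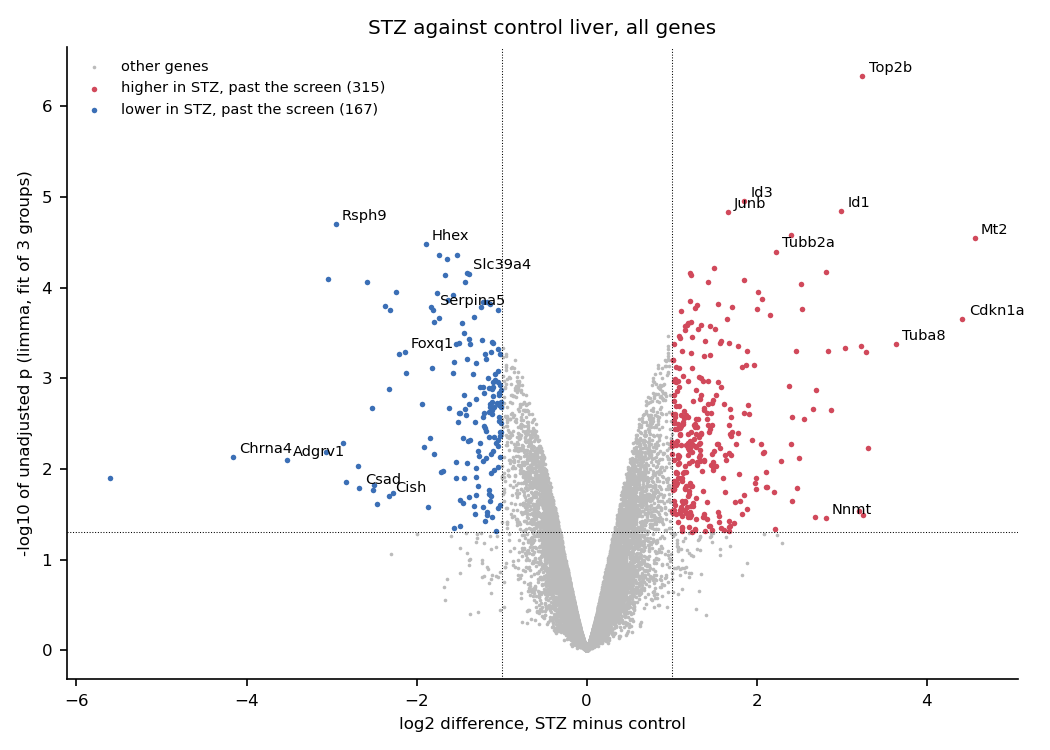
Difference between STZ and control liver (x axis, log2) against the -log10 of the unadjusted p of the limma fit of 3 groups (y axis) for 17742 genes, with the 315 genes past the screen as higher in red and the 167 as lower in blue; dotted lines mark the limits of the screen. The differences of Mt2 and Cdkn1a lie farthest to the right among all genes, and Top2b, whose arrays disagree within the control samples, stands alone at the top. The gene farthest to the left carries a clone symbol, which the naming rule leaves out.

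The largest difference upwards was that of a metallothionein, one of the small cysteine-rich proteins that bind zinc and copper. Mt2 stood at 10.22 and 11.57 in control samples 1 and 2 and at 15.29 and 15.62 in STZ samples 1 and 2. Both STZ samples lay far above both control samples, and the gap between the controls was small beside the difference of 4.56 ± 0.42 (23.6-fold, adjusted p = 0.0647 by limma, 0.0209 to 0.202 over the alternatives). Its neighbour Mt1 started from a higher level, 14.29 and 14.54 in control, and reached 16.33 and 16.53 in STZ. Again the groups did not overlap, and the difference was 2.01 ± 0.23 (4.03-fold). Both genes passed the adjusted threshold in the fit of the 4 samples and in the fit without discordant arrays. The promoters of this pair are shown because the genes differed together and lie side by side on chromosome 8. The sequences are the 250 bases before each start in RefSeq's GRCm38.p6 annotation, both on the plus strand, for Mt2 chr8:94172368-94172617 and for Mt1 chr8:94178839-94179088. Capitals mark the core of the metal response element, TGCACNC or TGCGCNC on either strand, the motif bound by the zinc-sensing factor MTF1:
Mt2: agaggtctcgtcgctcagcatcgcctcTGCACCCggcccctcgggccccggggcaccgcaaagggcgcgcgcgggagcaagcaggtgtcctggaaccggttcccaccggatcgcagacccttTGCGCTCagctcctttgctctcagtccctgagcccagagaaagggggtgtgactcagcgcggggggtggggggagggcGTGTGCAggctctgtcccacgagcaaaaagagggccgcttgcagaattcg
Mt1: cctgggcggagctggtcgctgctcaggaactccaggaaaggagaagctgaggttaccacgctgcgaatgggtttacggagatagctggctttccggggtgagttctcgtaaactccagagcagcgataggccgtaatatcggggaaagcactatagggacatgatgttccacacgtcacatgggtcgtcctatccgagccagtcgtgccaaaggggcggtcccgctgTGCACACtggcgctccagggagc

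Within the full windows of 300 bases, which add 50 bases after the start, Mt2 held 4 such cores and Mt1 held 3, counting overlapping matches. Of 32851 promoter windows in the table, 25.7% held at least 1 core and 0.517% held 4 or more. A match is a description of these letters and not a measured site. Over the 27 measured members of the metal list, 3 were past the screen as higher and 1 as lower, and the median difference was 0.03. The third higher member, Mt4, was dim (6.55 and 6.83 in control, 8.18 and 7.70 in STZ) and its difference of 1.25 ± 0.43 shrank to 0.65 with an offset of 200. Slc39a4, the ZIP4 zinc importer, ran the other way, from 16.02 in control sample 1, with sample 2 nearly equal, to 14.61 and 14.60 in STZ. The samples of each group lay close together, and the difference of -1.41 ± 0.15 passed in the fits of the 4 samples and without discordant arrays. Slc30a1, the zinc exporter that is itself a classic target of MTF1, read 13.73 and 13.51 in control and 13.68 and 13.44 in STZ. Its groups overlapped (-0.06 ± 0.16).

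Targets of p53, the transcription factor that answers DNA damage and other stress, were among the families with the largest share past the screen. Of 25 measured members of 27 listed, 7 were past the screen as higher (28.0%) and 2 as lower (8.0%), the median difference was 0.53, and both STZ samples lay above both control samples for 17 members, against 23.9% of all genes. In the fit of the 4 samples 6 passed as higher and 1 as lower. Cdkn1a, which encodes the cyclin-dependent kinase inhibitor p21, read 10.81 and 10.17 in control and 14.95 and 14.86 in STZ. The STZ samples were nearly equal and the difference was 4.42 ± 0.58 (21.4-fold, adjusted p = 0.0742 by limma, 0.00804 to 0.381 over the alternatives). Gdf15, a stress-induced hormone that lowers appetite, read 10.74 and 10.41 in control and 13.80 and 13.79 in STZ. This was a 9.33-fold difference (3.22 ± 0.47) with a wide gap between the groups. Phlda3, a brake on the kinase AKT, went from 8.65 and 8.23 to 11.15 and 11.49 (2.88 ± 0.58).

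Smaller differences in the same direction were measured for Zmat3, an RNA-binding zinc finger protein, at 1.86 ± 0.38, for Ccng1, cyclin G1, at 1.70 ± 0.35, and for the kinase gene Plk2 at 1.70 ± 0.39. Each of these passed in the fit of the 4 samples. Trp53inp1, a cofactor of p53, differed by 1.17 ± 0.33, and its STZ samples were uneven at 14.30 and 13.56 against 12.78 and 12.74 in control. Mdm2, the ubiquitin ligase that limits p53, read 14.06 and 14.05 in control and 14.78 and 15.28 in STZ. Its groups did not overlap, and its difference of 0.98 ± 0.21 fell just short of the 2-fold limit. The members on the lower side were Eda2r, a member of the tumour necrosis factor receptor family (15.50 and 15.77 in control, 14.43 and 14.46 in STZ, -1.19 ± 0.18), and the kinase gene Plk3 at -1.13 ± 0.37. The Plk3 value was -0.71 without STZ sample 1.

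Genes of DNA replication formed the other large block. Of 40 measured cell cycle genes, 13 were past the screen as higher (32.5%) and 0 as lower, where limma gave 15 higher and 0 lower at an unadjusted p under 0.05. The median difference was 0.62, and 6 members passed in the fit of the 4 samples. Of the 13 past the screen, 5 encode subunits of the MCM helicase, which is loaded onto DNA before replication starts. Mcm5 read 9.36 and 9.83 in control and 11.55 and 12.46 in STZ, a difference of 2.41 ± 0.80. Mcm3 differed by 2.28 ± 0.60, Mcm4 by 1.98 ± 0.59, Mcm2 by 1.74 ± 0.58 and Mcm7 by 1.10 ± 0.40. Of the factors that load or activate the helicase, Cdt1 differed by 1.99 ± 0.57, Cdc45 by 1.99 ± 0.61 and Gins2 by 1.45 ± 0.57. For each of these 8 genes the STZ samples lay above the control samples.

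Uhrf1, which carries DNA methylation over to the new strand, had the largest difference of the list and the widest spread. It read 9.22 and 9.80 in control and 11.43 and 12.95 in STZ (2.68 ± 0.99). Sample 2 of the STZ group was above sample 1 for all 13 members past the screen, so the height of the block differed between the STZ samples. Ccnd1, cyclin D1, had the most even STZ samples, at 15.57 and 15.66 against 14.24 and 14.16 in control (1.41 ± 0.47). E2f1, a transcription factor of the entry into S phase, differed by 1.61 ± 0.31, but its value was 1.02 on array 1 of each sample alone. Aurka, a mitotic kinase, differed by 1.27 ± 0.51 and Rbl1, the retinoblastoma relative p107, by 1.15 ± 0.36. Among other genes of dividing cells, Top2a, topoisomerase II alpha, differed by 0.99 ± 0.41 and Mki67, the proliferation antigen, by 0.12 ± 0.15 with overlapping groups and its other probe at 0.53. Cdkn1b, the p27 inhibitor, overlapped between groups (-0.17 ± 0.22).

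Replication genes are known targets of the E2F factors, so their promoter windows were searched for the E2F core, taken as TTTCCCGC, TTTCGCGC, TTTGCCGC or TTTGGCGC on either strand. Of the 13 genes past the screen, 10 had a window and 6 of these held a core (Mcm3, Mcm5, Mcm7, Cdt1, Rbl1 and Uhrf1), while 2.26% of all windows did. Some genes have several windows, and overlapping matches were counted apart. The stretches of 30 bases around the cores that lie before the start are printed to show the shared letters, with the core in capitals. In RefSeq's GRCm38.p6 annotation they lie at chr8:75109348-75109377 on the plus strand for Mcm5, chr5:138172027-138172056 on the minus strand for Mcm7, chr17:56304120-56304149 on the plus strand for Uhrf1 and chr2:157204535-157204564 on the minus strand for Rbl1:
Mcm5: ccaagaacTTTCGCGCCAAAacgtccagcc
Mcm7: ttcgaaccGCGGGAAAcagggtgtccaacc
Uhrf1: gagtcgggTTTCGCGCgcccaggcgtctcc
Rbl1: caagaaggcgatTTTCGCGCgctttgtcgc

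The Mcm5 stretch holds overlapping cores on opposite strands, and the Mcm7 stretch holds its core on the opposite strand.

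**Figure D2:**
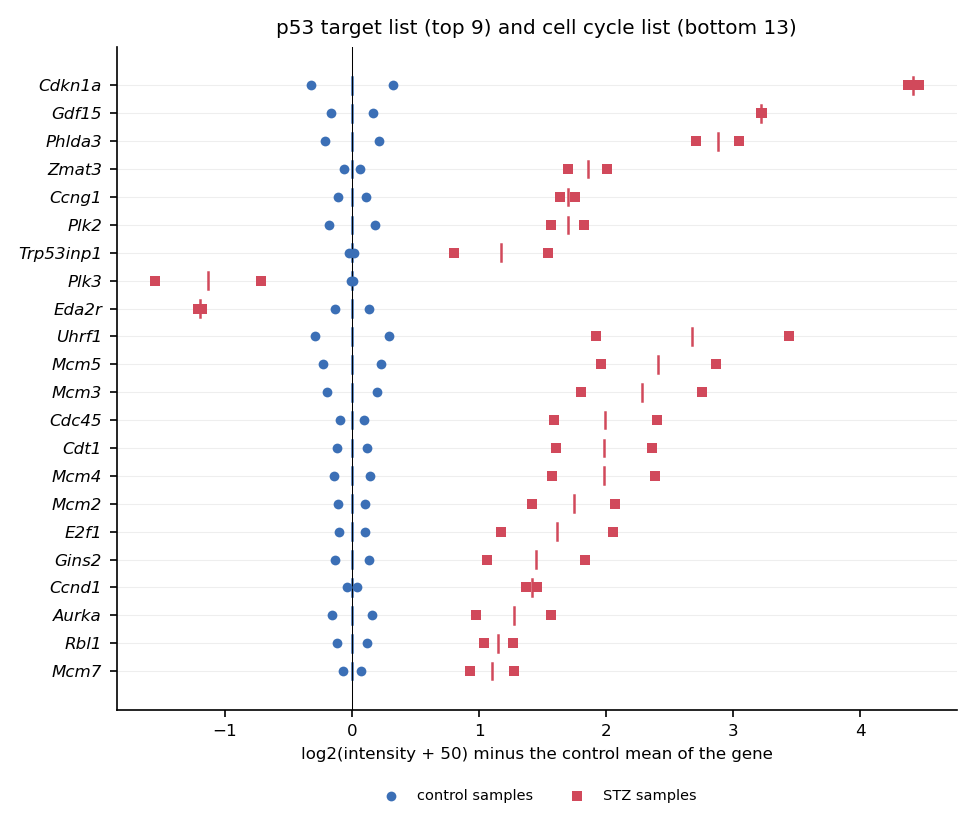
Log2(intensity + 50) of each control sample (blue circles) and STZ sample (red squares) minus the control mean of the gene, for the 9 p53 list members past the screen (Cdkn1a to Eda2r) and the 13 cell cycle list members past it (Uhrf1 to Mcm7); vertical ticks are group means of n = 2. The STZ samples lie close together for Cdkn1a, Gdf15 and Ccnd1 and far apart for Uhrf1, and all but Plk3 and Eda2r lie to the right of the controls.

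Targets of bone morphogenetic protein signalling, the pathway through which the liver senses iron, followed. BMP receptors phosphorylate SMAD proteins, which switch on the Id genes, the inhibitory SMADs and hepcidin. Of 30 measured members, 4 were past the screen as higher (13.3%) and 0 as lower (limma gave 6 higher and 3 lower at an unadjusted p under 0.05), with a median of 0.11. Id1, an inhibitor of helix-loop-helix factors, read 10.96 and 10.76 in control and 14.12 and 13.59 in STZ. The difference of 2.99 ± 0.24 (7.97-fold, adjusted p = 0.0643 by limma, 0.0137 to 0.336 over the alternatives) is many times the gap between samples of a group. Id3 went from 12.82 and 12.85 to 14.77 and 14.60 (1.85 ± 0.14), and Smad7, an inhibitory SMAD, from 9.85 and 9.87 to 11.96 and 11.45 (1.85 ± 0.20). The groups were well apart for both genes, and Id1, Id3 and Smad7 passed in the fits of the 4 samples and without discordant arrays. Atoh8, a BMP-responsive factor of hepatocytes, read 10.65 and 11.91 in control and 13.04 and 12.90 in STZ. Its control samples were uneven, and the difference of 1.69 ± 0.38 was 1.06 without control sample 1.

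Other members of the pathway gave smaller values. Smad6, the other inhibitory SMAD, read 9.96 and 9.85 in control and 10.31 and 10.13 in STZ, a difference of 0.32 ± 0.15. Hamp2, a relative of hepcidin, read 13.01 and 12.56 in control and 12.69 and 12.63 in STZ, with overlapping groups (-0.13 ± 0.30), and Hamp itself was not analysed here. Apcs, serum amyloid P, was the 1 member of the acute phase and iron list past the screen, at -1.91 ± 0.46, from 16.36 and 15.99 in control to 14.82 and 13.70 in STZ. Of 29 measured members of that list 0 were past the screen as higher, with 2 higher and 2 lower at an unadjusted p under 0.05 by limma. Lcn2, lipocalin 2, overlapped between groups (1.34 ± 0.80), and Hp, haptoglobin, differed by -0.12 ± 0.14.

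Immediate early transcription factors, which respond within minutes to growth factors and stress, were higher in part. Of 32 measured members 4 were past the screen as higher (12.5%) and 0 as lower, with 9 higher and 0 lower at an unadjusted p under 0.05 by limma. Egr1 read 11.23 and 11.15 in control and 13.30 and 14.48 in STZ, so the STZ samples differed from each other while the controls agreed, and the difference was 2.70 ± 0.49. Klf10, a Kruppel-like factor induced by TGF-beta, went from 10.47 and 10.57 to 12.91 and 12.06 (1.97 ± 0.32). Junb, an AP-1 subunit, was evener, at 12.03 and 12.02 in control and 13.60 and 13.76 in STZ (1.66 ± 0.14), and its other probe gave 1.35. Maff, a small MAF protein, differed by 1.09 ± 0.29.

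**Figure D3:**
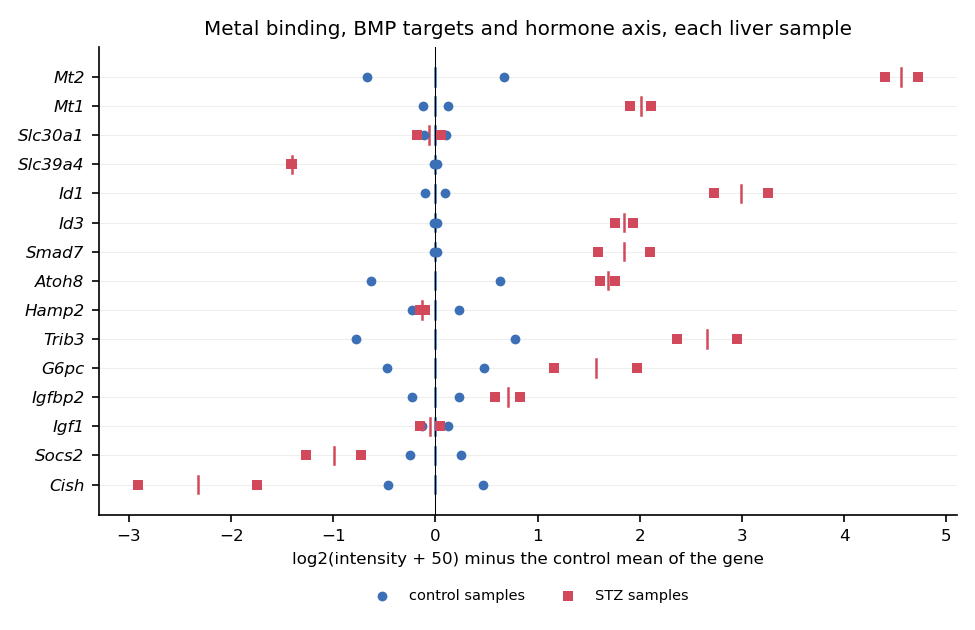
Log2(intensity + 50) of each control sample (blue circles) and STZ sample (red squares) minus the control mean of the gene, for metal binding genes (Mt2 to Slc39a4), BMP targets (Id1 to Hamp2) and genes of glucose, insulin and growth hormone (Trib3 to Cish); vertical ticks are group means of n = 2. Mt2, Id1 and Trib3 lie to the right of the controls in both STZ samples, Slc39a4 and Cish to the left, and Slc30a1, Hamp2 and Igf1 overlap with them.

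Genes tied to insulin and growth hormone differed in both directions. Of 37 measured members, 2 were past the screen as higher (5.41%) and 1 as lower (2.70%), the median was 0.01 and 0 passed in the fit of the 4 samples, although limma gave 3 higher and 6 lower at an unadjusted p under 0.05. Trib3, a pseudokinase that binds AKT, read 10.85 and 12.41 in control and 14.59 and 14.00 in STZ (2.66 ± 0.53). Cish, the STAT5-induced inhibitor of growth hormone signalling, read 14.17 and 15.10 in control and 11.72 and 12.89 in STZ. Both STZ samples were lower, although the samples of either group lay well apart, and the difference was -2.33 ± 0.75. Socs2, another STAT5 target that restrains growth hormone, read 12.60 and 13.09 in control and 11.57 and 12.12 in STZ, just short of the 2-fold limit, and the receptor gene Ghr stood at 17.94 and 17.92 in control and 16.94 and 17.15 in STZ (-0.88 ± 0.20), with further probes between -0.61 and 0.01.

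The growth factor at the end of this axis gave conflicting probes. The brighter probe of Igf1 read 14.94 and 14.68 in control and 14.86 and 14.66 in STZ (-0.05 ± 0.21), while the other probe of the gene differed by -2.82. Of the binding proteins, Igfbp6 was dim and differed by 1.03 ± 0.32, or 0.58 with an offset of 200. Igfbp2 read 15.45 and 15.91 in control and 16.26 and 16.51 in STZ (0.71 ± 0.25), Igfbp1 read 14.68 and 13.15 against 14.78 and 14.71, barely above control sample 1 (0.83 ± 0.67), and Igfals differed by 0.41 ± 0.31.

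In the list of glucose and glycogen enzymes, 2 of 38 measured members were past the screen as higher and 1 as lower, with a median of -0.05. G6pc, the catalytic subunit of glucose-6-phosphatase, read 14.18 and 13.22 in control and 15.68 and 14.86 in STZ (1.57 ± 0.38). Its samples were spread in both groups without overlapping. The subunits that bring protein phosphatase 1 to glycogen split: Ppp1r3c went from 14.17 and 13.69 to 15.43 and 15.09 (1.33 ± 0.25), and Ppp1r3g from 13.64 and 12.23 to 12.09 and 10.80 (-1.49 ± 0.58). The Ppp1r3g difference was -0.84 without STZ sample 2 and -0.78 without control sample 1. Slc2a2, the GLUT2 gene named above, differed by 0.40 ± 0.26, and Pck1, which ranked among the brightest probes in both groups, by 0.21 ± 0.13.

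Genes with different levels in male and female mouse liver, a pattern set by the rhythm of growth hormone release through STAT5, differed in opposite directions. Of 10 measured female-biased genes, 4 were past the screen as higher (40.0%) and 0 as lower, with 6 higher and 0 lower at an unadjusted p under 0.05 and a median of 0.63. Of 13 measured male-biased genes, 3 were past it as lower (23.1%) and 0 as higher, with 6 lower and 0 higher at an unadjusted p under 0.05 and a median of -0.65. Most members of both lists were not analysed here (13 of 23 and 15 of 28). A1bg read 7.28 and 7.45 in control and 10.42 and 9.25 in STZ (2.47 ± 0.37). Slco1a4, an organic anion and bile acid uptake transporter, went from 14.01 and 13.93 to 15.98 and 15.71 (1.88 ± 0.30). Its groups were clearly apart at a high level, while Prom1, prominin 1, rested largely on STZ sample 1 (10.33 and 10.32 in control, 12.47 and 10.93 in STZ, 1.38 ± 0.50, and 0.61 without that sample), and its other probes ranged from -0.22 to 0.69. Acot3, an acyl-CoA thioesterase, differed by 1.79 ± 0.50. On the male-biased side Capn8, a calpain protease, differed by -1.39 ± 0.15, Nudt7, a peroxisomal CoA diphosphatase, by -1.30 ± 0.21, and Keg1, a glycine acyltransferase relative, by -1.25 ± 0.22. Both probes of Capn8 and both of Nudt7 were lower in STZ.

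Some glucocorticoid-responsive genes were higher. Of 23 measured members 4 were past the screen as higher (17.4%) and 0 as lower (limma gave 8 higher and 0 lower at an unadjusted p under 0.05), with a median of 0.57. For 13 of the 23, both STZ samples lay above both control samples, against 23.9% of all genes. Mt2 and Cdkn1a, described above, are 2 of the 4 past the screen. Zbtb16, the zinc finger factor PLZF, read 9.10 and 10.53 in control and 13.29 and 12.91 in STZ. The control samples were uneven and still far below the STZ samples (3.28 ± 0.50, 9.71-fold). Fkbp5, the co-chaperone that tempers the glucocorticoid receptor, went from 11.13 and 11.72 to 12.81 and 12.60 (1.28 ± 0.28). Tat, tyrosine aminotransferase, and Sgk1, which are likewise classic glucocorticoid targets, differed by -0.11 ± 0.23 and -0.13 ± 0.14 with overlapping groups. Among 22 measured clock genes 0 were past the screen, with 3 higher and 2 lower at an unadjusted p under 0.05 by limma. Nr1d2, a clock repressor, had the smallest p (0.84 ± 0.20). Per1 differed by 0.57 ± 0.19, Dbp by -0.43 ± 0.16 and Nr1d1 by -0.12 ± 0.20.

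Enzymes that conjugate drugs and metabolites differed in both directions: of 44 measured members 4 were past the screen as higher (9.09%) and 2 as lower (4.55%), around a median of 0.00. Nnmt, which methylates nicotinamide, read 14.54 and 13.54 in control and 17.21 and 16.48 in STZ. The groups were separate although each was spread, and the difference was 2.81 ± 1.04 (7.01-fold). Among sulfotransferases, Sult1e1, which inactivates oestrogens, went from 7.31 and 7.33 to 10.42 and 9.34 (2.56 ± 0.54), and Sult1d1 from 13.45 and 13.38 to 15.34 and 14.79 (1.65 ± 0.21). Sult1a1, their abundant relative, differed by 0.68 ± 0.22. Gstt3, a theta-class glutathione transferase, read 15.89 and 15.01 in control and 17.09 and 16.26 in STZ (1.23 ± 0.37, or 0.82 without STZ sample 1 and 0.79 without control sample 2). On the lower side were Ces1e, a carboxylesterase, at -1.13 ± 0.36 and Nat1, an arylamine acetyltransferase, at -1.10 ± 0.21. Of 57 cytochrome P450 genes listed, 56 were not analysed here, and the remaining member, their electron donor Por, differed by -0.13 ± 0.15.

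Of 28 measured genes of bile acid synthesis and transport, 4 were past the screen as higher (14.3%) and 0 as lower, with 6 higher and 5 lower at an unadjusted p under 0.05 by limma and a median of -0.05. All 4 are membrane transporters. Abcc4, an exporter of the sinusoidal membrane, read 8.68 and 8.55 in control and 10.58 and 10.82 in STZ (2.09 ± 0.52), and Slco1a4 is described above. Abcb4, which moves phosphatidylcholine into bile, went from 16.74 and 16.48 to 17.52 and 17.86 (1.08 ± 0.18), and Abcb1a, a multidrug exporter, from 9.72 and 9.50 to 10.50 and 10.81 (1.04 ± 0.18). None of the main bile salt carriers and sensors that follow cleared the screen. Abcb11, the bile salt export pump, read 14.47 and 14.70 in control and 15.27 and 14.61 in STZ (0.36 ± 0.27), Slc10a1, the uptake carrier NTCP, differed by -0.51 ± 0.30 with its other probe at 0.12, and Nr1h4, the bile acid receptor FXR, differed by -0.46 ± 0.16.

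Abcc4 is also counted in the list of antioxidant genes governed by NRF2, where 4 of 30 measured members were past the screen as higher (13.3%) and 0 as lower, with 9 higher and 0 lower at an unadjusted p under 0.05 by limma. Nfe2l2, the gene of NRF2 itself, read 12.94 and 12.97 in control and 14.13 and 14.22 in STZ (1.22 ± 0.13). Gclc, the catalytic subunit of glutamate-cysteine ligase that limits glutathione synthesis, went from 13.80 and 13.59 to 14.72 and 15.42 (1.38 ± 0.36). Nqo1, the quinone reductase often used as the readout of NRF2, differed by 0.54 ± 0.17 and did not clear the screen.

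In amino acid catabolism and the urea cycle 2 of 42 measured members were past the screen as higher and 0 as lower, with 6 higher and 3 lower at an unadjusted p under 0.05 by limma. Oat, ornithine aminotransferase, read 17.38 and 17.23 in control and 18.84 and 18.90 in STZ (1.57 ± 0.23). Its probe reached rank 3 of all genes in STZ, close to the top of the scale. Cth, which makes cysteine from cystathionine, went from 16.51 and 16.16 to 17.61 and 17.61 (1.27 ± 0.51). Csad, which takes cysteine sulfinate on towards taurine and belongs to none of the lists, ran the other way at 16.49 and 16.59 in control and 13.62 and 14.09 in STZ. This 6.41-fold difference (-2.68 ± 0.82) passed in the fit of the 4 samples, where its standard error was 0.20 (0.82 in the fit of 3 groups, which takes in the spread of the MENS-treated samples).

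Of 46 measured solute carriers, 4 were past the screen as higher (8.70%) and 1 as lower (2.17%). Slc22a5, the carnitine importer OCTN2, read 9.32 and 9.11 in control and 10.47 and 10.38 in STZ (1.21 ± 0.15) and passed in the fits of the 4 samples and without discordant arrays. Slc16a5, a monocarboxylate transporter family member, differed by 1.55 ± 0.55. The citrate importer Slc13a5 (1.10 ± 0.38) and the glutamate transporter Slc1a2 (1.08 ± 0.41) rested more on STZ sample 2, without which they differed by 0.50 and 0.52. Slc22a7, the organic anion transporter OAT2, was lower at -1.22 ± 0.25. Outside the list, Mfsd2a, which carries lysophosphatidylcholine and is known to be induced in fasted liver, read 13.02 and 12.21 in control and 15.40 and 15.51 in STZ (2.84 ± 0.43).

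Cytoskeletal genes gave some of the clearest differences. Tuba8, an alpha-tubulin, read 8.56 and 8.83 in control and 12.60 and 12.07 in STZ, a 12.5-fold difference (3.64 ± 0.53, adjusted p = 0.0916 by limma, 0.0114 to 0.381 over the alternatives). Tubb2a, a beta-tubulin, went from 12.45 and 12.61 to 15.05 and 14.47 (2.23 ± 0.22). They were the 2 of 28 measured tubulin and actin genes past the screen, and 0 were past it as lower, with 5 higher and 2 lower at an unadjusted p under 0.05 by limma. Krt23, a keratin of simple epithelia, read 10.64 and 10.63 in control and 13.67 and 13.68 in STZ. Its samples were almost identical within each group and 8.23-fold apart (3.04 ± 0.45).

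Spink1, a secreted trypsin inhibitor, read 7.25 and 8.50 in control and 11.17 and 11.19 in STZ (3.31 ± 0.81), and Serpinb1a, an intracellular elastase inhibitor, differed by 2.06 ± 0.25 with arrays of a sample up to 1.09 apart. Among 23 measured serpins and related inhibitors these 2 were past the screen as higher and 2 as lower, namely Serpina5, the protein C inhibitor (-1.80 ± 0.23), and Serpine2, nexin 1 (-1.06 ± 0.43, or -0.64 without STZ sample 1). Serpina9, which is not in that list, read 10.44 and 9.73 in control and 7.42 and 8.01 in STZ (-2.37 ± 0.29). Among markers of bile duct cells, Krt19 (1.25 ± 0.24), Tspan8 (1.47 ± 0.28) and Anxa13 (1.69 ± 0.34) were past the screen as higher, 3 of 11 measured, and 0 as lower. In the fit of the 4 samples 0 passed, while limma gave 4 higher and 0 lower at an unadjusted p under 0.05 in the fit of 3 groups. The median of the 11 was 0.36, and both STZ samples lay above both control samples for 6 of them, against 23.9% of all genes. The summed intensity of the 11 was 18999.8 and 18348 in control and 28131 and 22699 in STZ. Of the defining markers of the same cells, Sox9 differed by 0.03 ± 0.26 and Epcam by 0.07 ± 0.15 with its other probe at 0.73. Krt7 differed by 0.32 ± 0.26, with arrays of a sample up to 1.29 apart, so its value is uncertain. The part of bile duct cells in the values of Krt23 and Spink1 was not tested.

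Interferon response genes were higher in part: 5 of 38 measured members were past the screen as higher (13.2%) and 0 as lower, with 7 higher and 3 lower at an unadjusted p under 0.05 by limma. In the fit of the 4 samples 1 member passed, and it was none of these 5. Isg15, a ubiquitin-like modifier, read 11.48 and 12.33 in control and 13.54 and 13.50 in STZ (1.61 ± 0.65), and Rsad2, viperin, 11.42 and 11.67 against 12.67 and 13.32 (1.45 ± 0.32). The GTPase genes Mx1 (1.67 ± 0.36) and Mx2 (1.33 ± 0.34) differed alike. Irf1 had arrays of a sample up to 2.53 apart and a further probe at -0.04, so its 2.50 ± 0.64 is uncertain. For 4 of the 5, STZ sample 2 was the higher STZ sample. Among chemokines and cytokines, 1 of 38 was past the screen as higher, the NF-kB inhibitor Nfkbia (1.12 ± 0.17), and 1 as lower, the cytokine Il1b, which read 13.05 and 13.15 in control and 11.92 and 12.08 in STZ (-1.10 ± 0.20). Markers of macrophages, T and NK cells, neutrophils and sinusoidal endothelium were past the screen for 0 of 13, 0 of 10, 0 of 11 and 0 of 11 members, with 0 to 1 of them in either direction at an unadjusted p under 0.05 by limma.

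In the list of ER stress and amino acid response genes, 1 of 28 measured members was past the screen as higher, Trib3 from above, and 1 as lower, Chac1, which degrades glutathione (-1.04 ± 0.24). The median was -0.13, and limma gave 2 higher and 5 lower at an unadjusted p under 0.05. For 11 of the 28 members both STZ samples lay below both control samples, against 28.2% of all genes. Ddit3 (-0.05 ± 0.25), Atf4 (-0.12 ± 0.16) and Hspa5 (-0.06 ± 0.31) overlapped between groups, and Asns, asparagine synthetase, ranged from 9.81 to 13.28 within the controls. Of 23 heat shock genes 0 were past the screen as higher and 1 as lower, with 3 higher and 1 lower at an unadjusted p under 0.05 by limma. That gene was Hspa1a, at 13.96 and 12.57 in control and 12.18 and 10.62 in STZ (-1.86 ± 0.64, -1.08 without STZ sample 2 and -1.17 without control sample 1). Its near-identical copy Hspa1b differed by -0.50 ± 0.61, and probes of such copies can share their target. Of 39 complement and coagulation genes 1 was past the screen, the lectin pathway protease gene Masp1 (1.49 ± 0.28), whose value was 0.48 on array 1 and 2.50 on array 2 of each sample, and both STZ samples lay below both control samples for 22 of the 39, against 28.2% of all genes.

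The largest differences downwards were spread over unrelated genes. Chrna4, a subunit of nicotinic acetylcholine receptors, read 14.69 and 13.58 in control and 10.14 and 9.81 in STZ. It was 17.9-fold lower with no overlap (-4.16 ± 1.06, adjusted p = 0.161 by limma, 0.0201 to 0.443 over the alternatives). Adgrv1, a very large adhesion receptor, went from 12.13 and 11.26 to 7.75 and 8.59 (-3.53 ± 0.92), and Rsph9, a protein of the radial spokes of cilia, from 13.37 and 14.01 to 10.96 and 10.52 (-2.95 ± 0.26). All these samples were apart by group, and Rsph9 passed in the fits of the 4 samples and without discordant arrays.

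Camk2b, a calcium-dependent kinase, read 13.32 and 13.16 in control and 10.34 and 10.49 in STZ (-2.83 ± 0.83). Col27a1, a fibrillar collagen and the 1 of 39 matrix genes past the screen, went from 11.07 and 11.20 to 8.42 and 8.80 (-2.52 ± 0.50), while 0 matrix genes were past it as higher and limma gave 2 higher and 8 lower at an unadjusted p under 0.05. Fabp5, a fatty acid binding protein, went from 9.88 and 9.48 to 7.21 and 7.16 (-2.50 ± 0.75). Prss43, a serine protease, differed by -2.32 ± 0.42 and Vmp1, a membrane protein of autophagosome formation, by -1.94 ± 0.38, with 15.58 and 15.60 in control and 13.64 and 13.67 in STZ. Of 29 listed and measured genes of autophagy and the lysosome, 0 were past the screen, with 0 higher and 2 lower at an unadjusted p under 0.05 by limma, and Trp53inp2 had the smallest p at -0.85 ± 0.14.

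Several of the largest differences rested on 1 sample or 1 probe, and that of Frmd5 on a low level in control. Ildr2, an immunoglobulin-like receptor of the endoplasmic reticulum, read 13.24 and 12.94 in control and 9.39 and 11.76 in STZ, and its difference of -2.52 ± 0.78 was -1.33 without STZ sample 1. Tmem245, a membrane protein, read 7.76 and 11.73 in control and 12.88 and 13.03 in STZ. The control samples were far apart, so that its difference of 3.21 ± 1.14 was 1.22 without control sample 1 and 5.19 without control sample 2. Aunip, a partner of the Aurora A kinase, read 8.23 and 8.21 in control and 10.60 and 12.35 in STZ (3.25 ± 1.18), but its other probe differed by 0.19. Ntrk2, the TrkB receptor, differed by -2.24 ± 0.26 with its other probe at 0.24. Frmd5, a FERM domain protein, was dim in control (6.65 and 6.94, against 9.84 and 9.38 in STZ), and its difference of 2.81 ± 0.30 was 1.84 with an offset of 200. Over all genes past the screen, 73 had several probes, and 25 of these had a probe of opposite sign.

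**Figure D4:**
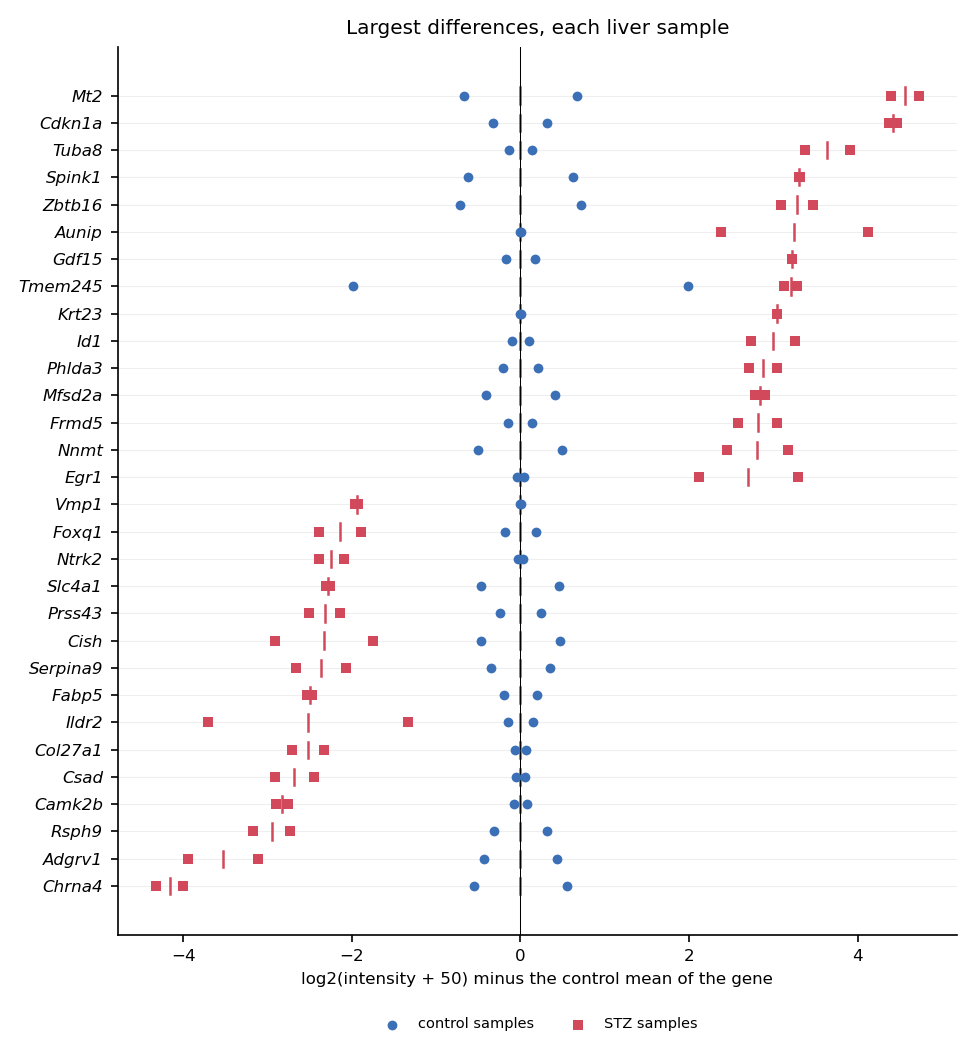
Log2(intensity + 50) of each control sample (blue circles) and STZ sample (red squares) minus the control mean of the gene, for the 15 genes with the largest differences upwards and the 15 with the largest downwards under the naming rule; vertical ticks are group means of n = 2. The groups do not overlap because the rule required it; Tmem245 has the widest gap between control samples, and Ildr2 and Aunip have wide gaps between STZ samples.

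Slc4a1, the band 3 anion exchanger of red cells, read 10.50 and 9.58 in control and 7.79 and 7.74 in STZ (-2.28 ± 0.72). The 4 measured red cell markers of 12 listed had a summed intensity of 81733 and 97489 in control and 36643 and 59747 in STZ. Most of this sum came from Alas2, the first enzyme of haem synthesis in red cells, whose mean intensity over the 12 arrays of the series was 62300.7. Alas2 differed by -1.02 ± 1.04 and did not clear the screen. Of the other markers, Car1, carbonic anhydrase 1, differed by 1.11 ± 0.24 with further probes between -0.22 and -0.19, and Epb42 was below a mean intensity of 50. The part of blood in the Slc4a1 value was not tested. Fat cell markers were past the screen as higher for 2 of 8, the lipid droplet gene Cidec (1.38 ± 0.21) and the fatty acid binding protein gene Fabp4 (1.43 ± 0.31). The summed intensity of the 8 was 394399 and 407390 in control and 455139 and 481399 in STZ. The list includes Pck1, whose mean intensity over the 12 arrays of the series was 418687, so this sum is mostly that of Pck1 and does not describe fat cells. The defining marker Adipoq read 9.49 and 9.63 in control and 9.92 and 9.96 in STZ (0.38 ± 0.15), and Plin1 overlapped between groups (-0.10 ± 0.15). The part of fat cells in these values was not tested. Rgs5, a pericyte gene and the 1 stellate cell marker of 12 past the screen, differed by 1.39 ± 0.57, and by 0.55 without control sample 2. That list had a median of -0.09, with 1 member higher and 4 lower at an unadjusted p under 0.05 by limma. Blnk, a B cell adaptor (-1.20 ± 0.22), was the 1 of 8 measured B and plasma cell markers past the screen, in a list with a median of -0.16. Cela1, an elastase of the pancreas (-1.13 ± 0.22), was the 1 of 7 measured pancreatic acinar cell markers past it, in a list with a median of -0.12.

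Markers of hepatocytes were among the brightest genes in both groups, as the liver label implies. Alb, albumin, read 18.89 and 18.96 in control and 18.98 and 19.00 in STZ, with a best rank of 4 and 2 among all genes (0.06 ± 0.13). Of 11 measured hepatocyte markers 0 were past the screen and 0 reached an unadjusted p under 0.05 by limma in either direction. Of 43 measured liver transcription factors and nuclear receptors, 0 were past the screen as higher and 1 as lower, with 4 higher and 7 lower at an unadjusted p under 0.05. That gene was Hhex, a homeobox factor of liver and bile duct development, which read 13.88 and 14.20 in control and 12.19 and 12.11 in STZ (-1.89 ± 0.18). Hnf4a (-0.09 ± 0.16) and Cebpa (-0.45 ± 0.21), central factors of hepatocyte identity, did not clear the screen. Foxq1, a forkhead factor outside the list, read 15.29 and 15.66 in control and 13.09 and 13.59 in STZ (-2.14 ± 0.32).

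**Figure D5:**
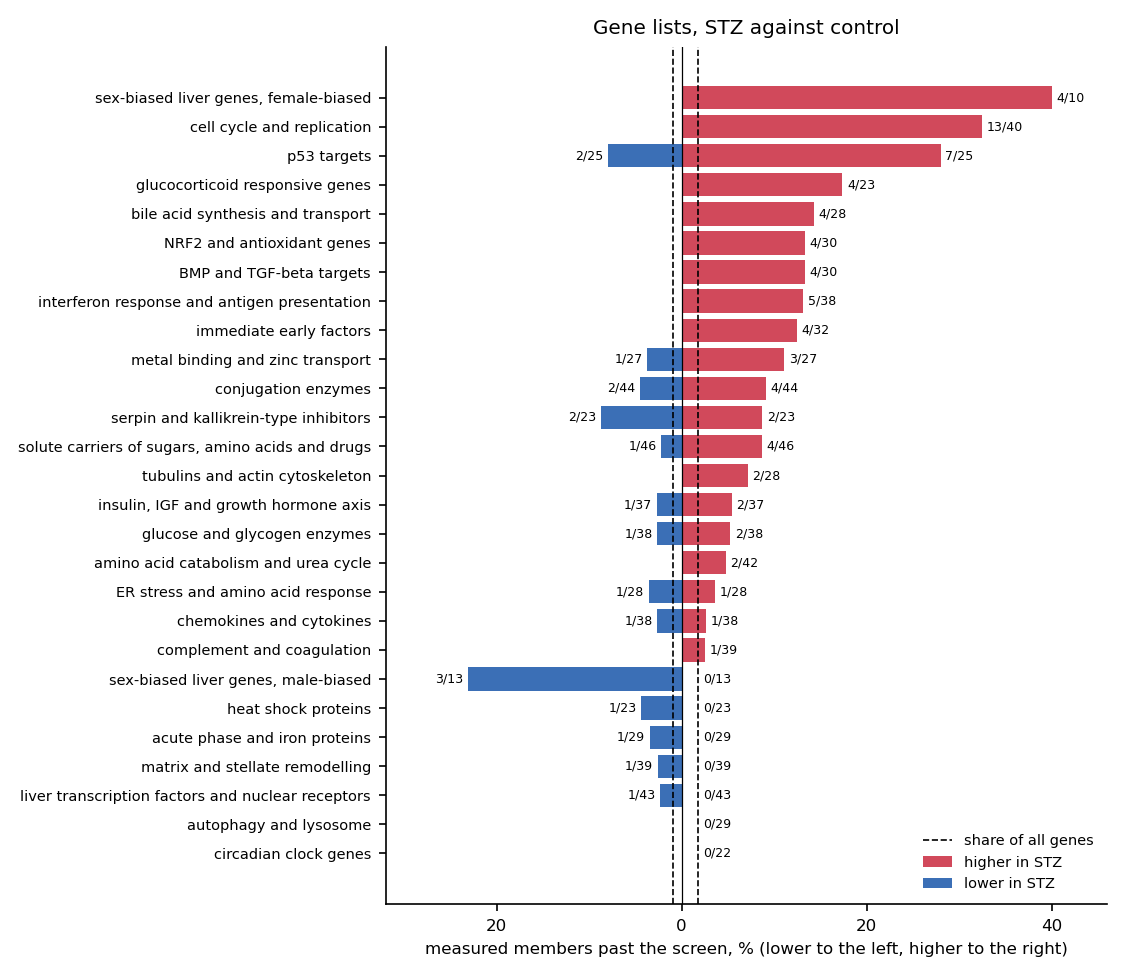
Share of the measured members of the family lists past the screen (x axis, %, higher in STZ to the right in red and lower to the left in blue), with the number of members past it over the number measured. The cytochrome P450 list, with 1 measured member, is not shown. Dashed lines mark the shares of all genes, 1.78% higher and 0.941% lower. Female-biased genes (4 of 10), cell cycle genes (13 of 40) and p53 targets (7 of 25) have the longest bars to the right and male-biased genes (3 of 13) the longest to the left.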

How the data were processed

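Total RNA of mouse liver was measured on 12 single-colour arrays, with 2 arrays for each of 6 samples. The values deposited by the authors are linear probe intensities, in the form that background subtraction and normalization leave: array medians lay between 768.89 and 770.33, and 44 to 52 of 26423 probes per array were below 0. How this was done is not given in the sources used here. Per the submitters' processing notes, limma 3.30.7 was among the authors' tools, in an unstated step. Here values below 0 were set to 0, 50 was added and log2 taken, and the 2 arrays of a sample were averaged. Of the probes, 20377 had 1 gene symbol, updated through RefSeq's GRCm38.p6 table, and 6046 had none here. The probe of highest mean log2 over the 12 arrays stood for each gene. One mean per group was fitted to 6 samples with limma 3.58.1 in R 4.3.3 (lmFit and eBayes, two-sided, Benjamini-Hochberg over all genes, 3 residual and 3.2 prior degrees of freedom), after the script was tested on simulated data. The number of arrays limits the precision, and 652 genes had a mean intensity under 50.

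Genes were named by rule: the 15 largest differences per direction among 378 genes outside the 3 lipid lists that cleared the screen, had separate groups, arrays within 1 of each other, a mean intensity of at least 100 in the higher group and a symbol that is no clone or predicted gene; up to 6 screen members per family list, or the smallest p where there were none; any gene past the adjusted threshold; and a panel of 24 genes, of which 17 were measured. Further list members named with their values were picked after those values were seen. There were 28 family lists and 12 marker lists. The members and lists were chosen with earlier results of these data known. Motif cores were counted in RefSeq promoter windows by exact match. The 14 alternatives covered the offset, a filter on dim genes, all probes, single arrays, the samples in the fit, the eBayes prior, discordant arrays and leaving out samples.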

Additional observations from a re-analysis of the deposited data

Results flagged for a closer look

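Probes without a gene symbol were not used in the comparison, and some of them differed between the groups. Of 6046 such probes, fitted apart in the same way, 77 were past the screen as higher in STZ (1.27%) and 56 as lower (0.926%), beside 1.78% and 0.941% of named genes. The adjusted threshold was passed by 0 of them in limma, while 903 had an unadjusted p under 0.05. Their differences reached 4.37 upwards and -6.15 downwards, and the latter exceeds the difference of every gene named in the report.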

How the results depend on the processing

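All 114 named genes past the screen kept their sign under the 14 alternatives in which they were fitted. For many of these the outcome was fixed in advance. The fit of the 4 samples, the eBayes prior, the replicate block and the gene filters leave the difference itself unchanged. Leaving out 1 sample cannot reverse the sign of a gene whose groups do not overlap. Only the offset, the mean of all probes and the single arrays could have changed it, and not for every gene. The offset and the single arrays could do so only where single arrays of the groups overlap. The mean of all probes could do so only for genes with several probes. The count of genes past the adjusted threshold, 1 in the fit of 3 groups, was 0 with an offset of 200, 4 with array 1 and 0 with array 2 of each sample, 185 in the fit of the 4 samples and 54 without discordant arrays, and 0 to 3 with a sample left out (3 without control sample 2, and 0 when any of the others was left out). The screen counts of 315 higher and 167 lower genes were 186 and 129 with an offset of 200, and 289 to 388 and 188 to 222 with a sample left out. Of the 482 genes, between 315 (offset of 200) and 482 (offset of 16) cleared the screen again under an alternative, and 326 to 361 with a sample left out. Of 56 list counts, 23 stayed equal or within 1.5 times under every alternative. No label pairs control with STZ samples, and the sample numbers used here follow the order of listing within each group. The deviations of control and STZ samples of the same number correlated at 0.00577 over genes. With this number as a replicate block 1 gene was called, and 340 and 179 cleared the screen. As the order is arbitrary, neither value tests a pairing. With n = 2 per group, differences near the spread between samples were not detectable.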
